A study of Mus musculus with 56 samples.

Results

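Ponatinib at 10 mg/kg once daily was compared directly with imatinib at 150 mg/kg 2 times a day in the liver transcriptome of APOE*3Leiden.CETP mice. The mice were assigned by their treatment labels, with no mouse selected by a measured value, and make up 16 of the 56 livers sequenced, 8 on each drug. All mice were females that carried the human APOE*3Leiden and CETP transgenes, which give a human-like lipoprotein metabolism, were 9 to 14 weeks old when they entered the study and ate a Western-type diet with 15% cacao butter and 0.15% cholesterol. Ponatinib mice received their second daily gavage as vehicle (5% carboxymethyl cellulose), whereas imatinib mice received drug at both. The compounds were therefore given at different doses and schedules, and compound and dose cannot be told apart in any difference below. The 8 control mice received vehicle only and their values are set beside those of both drugs. Drug was given for months after a run-in on the diet, so that the mice were older when their livers were taken.

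Imatinib and ponatinib are tyrosine kinase inhibitors that block the BCR-ABL1 kinase of chronic myeloid leukemia. Imatinib also inhibits KIT, the PDGF receptors, CSF1R and the DDR kinases, and ponatinib in addition inhibits the VEGF, FGF and TIE family receptors and SRC family kinases. Hepatocytes carry nuclear receptors and related factors that sense foreign compounds and lipids and switch on the enzymes that remove them. Among these, the aryl hydrocarbon receptor (AhR) drives the Cyp1 genes, CAR and PXR drive the Cyp2b, Cyp2c and Cyp3a genes, and PPAR-alpha, a receptor for fatty acids, drives fatty acid oxidation.

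The 16 libraries held from 7067386 to 11997763 gene-assigned reads. The labelled tissue was checked against 16 hepatocyte markers, all of which were read in each group, and which made up 102281 to 168043 CPM (read counts scaled to library size) per mouse with ponatinib and 117451 to 163678 with imatinib. The share of uniquely aligned reads outside annotated genes was 11.04% ± 1.99 with ponatinib and 10.04% ± 1.82 with imatinib (SD, n = 8 mice each; exact permutation test, two-sided, p = 0.32), as compared with 7.97% ± 0.42 in control mice. Several libraries stood apart from their group, by the chi-square per gene between pairs of libraries. Ponatinib replicate 2 lay at 91.4 to 166 from the other 7, replicate 4 at 52.1 to 68.3 and replicate 3 at 35.3 to 65.2 from the 5 remaining mice and each other, which lay at 15.6 to 33.7 among themselves. Imatinib replicates 7 and 8 lay at 36.4 to 52.7 from the other 6 and at 13.3 from each other, with 15.3 to 26.9 among the 6. Ponatinib replicate 2 had the lowest share of reads on albumin of all 16 mice, 4.01% as compared with 7.07% to 10.8% in the others, and levels of acute-phase transcripts far above every other mouse. Results that rest on it are therefore given with and without it. Libraries are numbered by order of deposit only, nothing in the labels pairs them across groups, and no labels on batches or sequencing dates were used here.

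Expression was tested with edgeR's quasi-likelihood test in a single fit of 48 mice (control and the 5 inhibitor groups), in which 14090 genes had enough reads to be tested. Calls were made at a Benjamini-Hochberg adjusted p below 0.05 over all of these genes, and fold changes are ponatinib minus imatinib on the log2 scale with their standard error (SE). With ponatinib, 41 genes were higher than with imatinib (0.291% of those tested) and 97 were lower (0.688%), 138 in all (0.979%). At the unadjusted cut-off of 0.01, 246 genes were higher (1.75%) and 304 lower (2.16%), 550 in all (3.9%). The share of all genes at an unadjusted p below 0.05 is not given here, so that list counts at that cut-off cannot be set against it. The median log2 fold change of all genes tested was 0.02. The groups did not overlap for 7 genes higher with ponatinib (0.0497%) and for 28 lower (0.199%). Without ponatinib replicate 2, 32 genes were higher (0.225%) and 93 lower (0.653%), and of the genes called with all mice, 19 of 41 higher and 76 of 97 lower were called again. The counts were 74 higher and 130 lower without ponatinib replicate 4, 42 and 80 without ponatinib replicate 3, 31 and 79 without imatinib replicate 7, and 41 and 84 without imatinib replicate 8. Livers were sequenced whole, so that fewer cells of a type and less RNA per cell cannot be told apart.

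**Figure D1:**
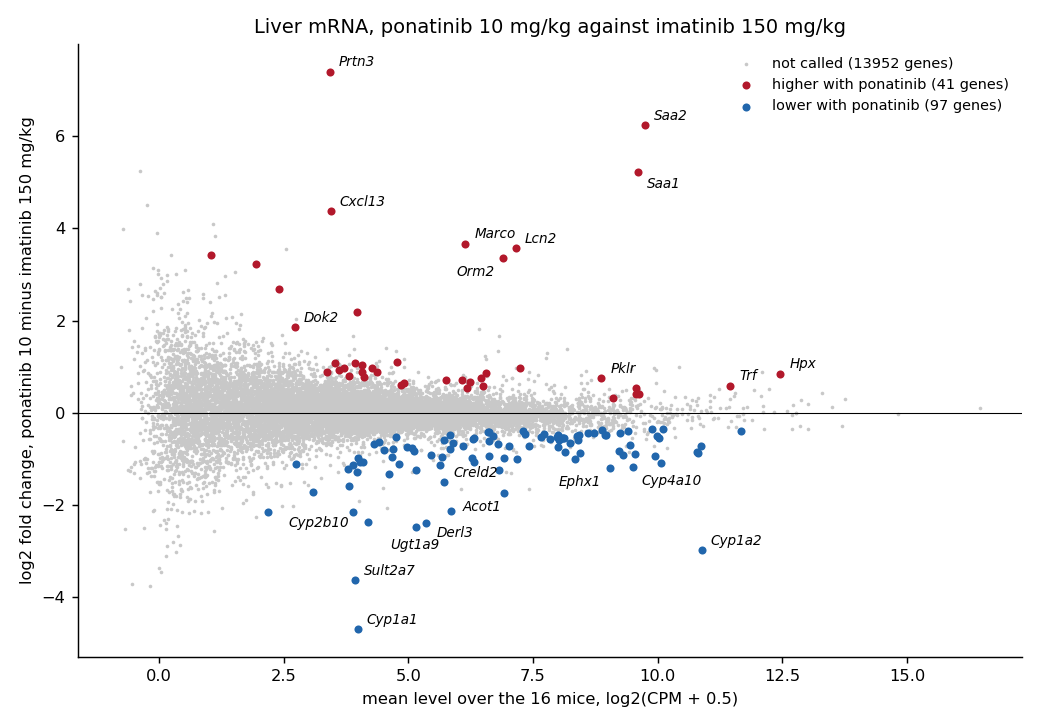
Each point is 1 of 14090 genes, with its mean level over the 16 mice on the horizontal axis, as log2(CPM + 0.5), and its log2 fold change, ponatinib minus imatinib, on the vertical axis. The 41 genes called higher with ponatinib are red and the 97 called lower are blue; Cyp1a1 lies lowest at -4.69 and Prtn3 highest at 7.39.

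The clearest differences between the drugs were in the Cyp1a genes, the main AhR targets of the liver. Cyp1a2, which metabolizes caffeine and aromatic amines, was found at 241 to 580.5 CPM (median 476) with ponatinib and 2686 to 3957 CPM (median 3372) with imatinib. All 8 imatinib mice lay above all 8 ponatinib mice, with a log2 fold change of -2.98 ± 0.18 (adjusted p = 6.06e-19), the smallest p of all genes. Control mice held 427 to 691 CPM (median 496), so that the ponatinib mice lay in and below the control range. Cyp1a1, which is nearly silent in liver unless AhR is active, followed at 0.434 to 1.99 CPM (median 1.11) with ponatinib and 10.6 to 48.0 CPM (median 29.9) with imatinib. Again the groups did not overlap, and the log2 fold change was -4.69 ± 0.65 (adjusted p = 1.16e-05); control mice had 0 to 1.68 CPM. As compared with control, Cyp1a1 rose by 5.02 with imatinib on the log2 scale (adjusted p = 1.57e-06) and Cyp1a2 by 2.68 (adjusted p = 3.49e-17), whereas the values with ponatinib were 0.34 (adjusted p = 0.804) and -0.29 (adjusted p = 0.261). These were 2 of the 8 genes tested of the AhR list, where 0.688% of all genes were called lower. The other 6 genes, among them the receptor Ahr and its partner Arnt, did not pass the adjusted threshold, and Nqo1, a quinone reductase shared by AhR and NRF2 that was chosen after its values were seen, stood at -0.86 ± 0.29 on the log2 scale (adjusted p = 0.186).

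Cyp1a1 and Cyp1a2 lie head to head on mouse chromosome 9, with 13958 bases between their RefSeq starts, Cyp1a1 on the plus strand (chromosome 9, 57687928 to 57703824) and Cyp1a2 on the minus strand (chromosome 9, 57676937 to 57683703; GRCm38). AhR binds DNA at the core letters GCGTG. The promoter of Cyp1a1 from RefSeq (GRCm38.p6, plus strand, the 250 bases before the start, chr9:57697363-57697612) is shown because this gene had the largest fold change among the genes lower with ponatinib, and it holds this core once, in capitals:
Cyp1a1: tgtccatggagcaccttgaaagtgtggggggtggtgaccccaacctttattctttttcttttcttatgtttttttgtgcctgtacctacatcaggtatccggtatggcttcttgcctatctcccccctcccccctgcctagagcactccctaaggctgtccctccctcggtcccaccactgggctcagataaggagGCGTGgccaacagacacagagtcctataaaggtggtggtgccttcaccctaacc
No match was found in the same window of Cyp1a2. Searched on both strands, GCGTG occurs in 28.1% of the 32817 RefSeq promoter windows of this length, so that its presence near Cyp1a1 is a description only.

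**Figure D2:**
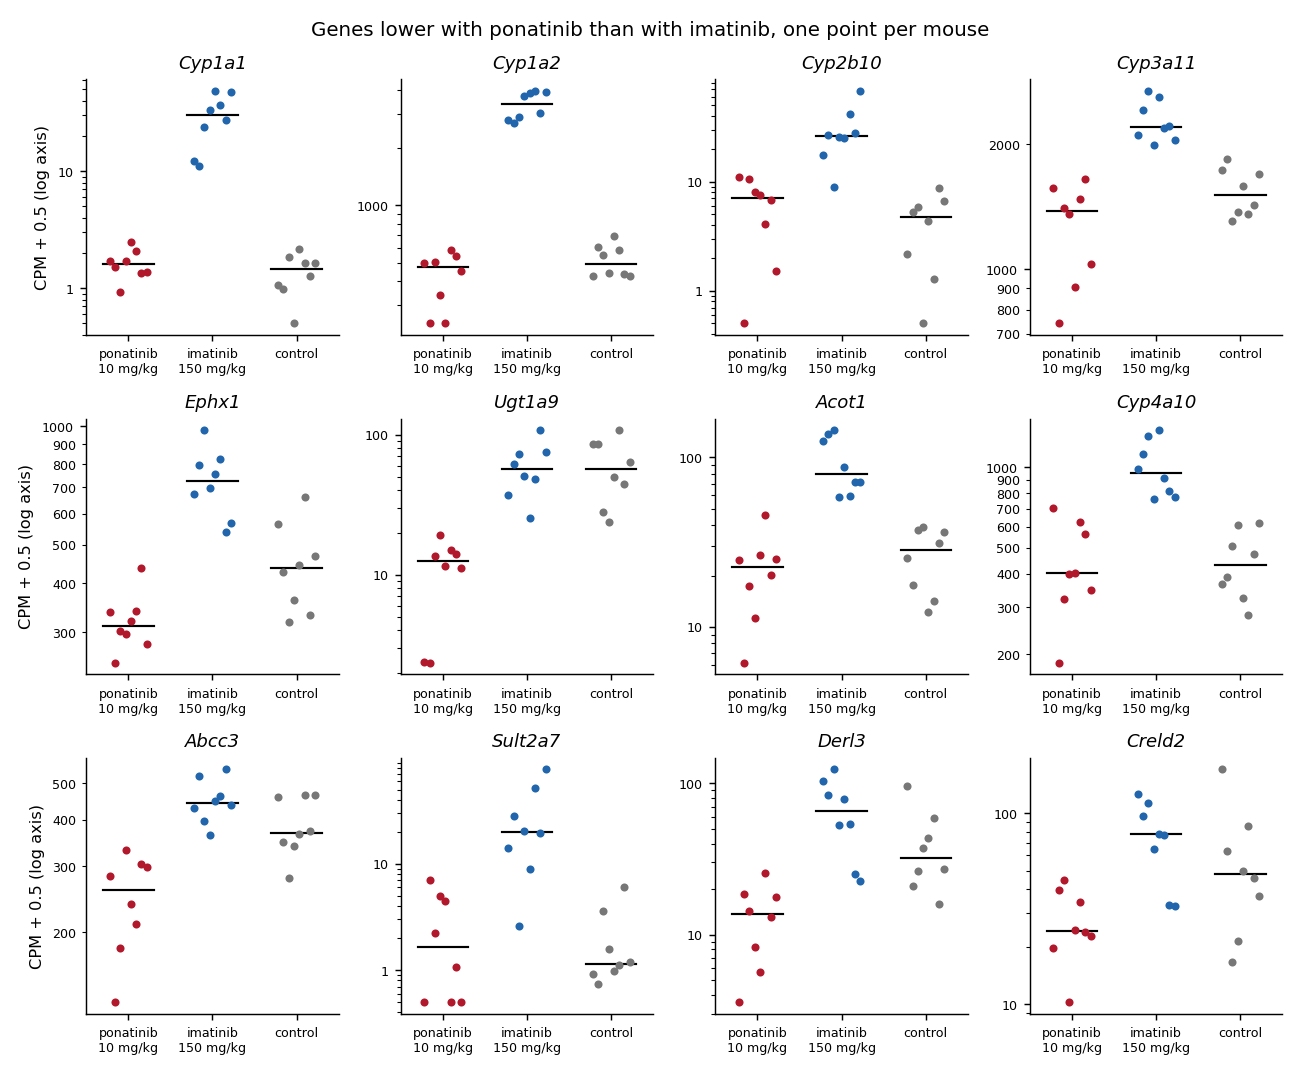
CPM + 0.5 on log axes for 12 genes lower with ponatinib than with imatinib, with 1 point per mouse in the ponatinib 10 mg/kg, imatinib 150 mg/kg and control groups (8 mice each) and the median as a line. Cyp1a1 and Cyp1a2 are raised in all 8 imatinib mice, whereas Ugt1a9 is low in all 8 ponatinib mice with imatinib in the control range.

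Several cytochromes P450 under CAR and PXR were lower with ponatinib. Of 25 tested, 5 were called lower (0.688% of all genes) and none higher, namely Cyp2c50, Cyp2c29, Cyp3a11, Cyp2c54 and Cyp2b10. Without replicate 2, 4 of 25 were called lower. The median log2 fold change of the list was -0.60, with 23 of 25 below zero, as compared with 0.02 for all genes. Cyp3a11, the main mouse counterpart of human CYP3A4, was found at 741 to 1653 CPM (median 1381) with ponatinib and at 1991 to 2691 CPM (median 2203) with imatinib, without overlap (-0.85 ± 0.14, adjusted p = 9.59e-05). Cyp2c50 likewise did not overlap, at 354 to 536 CPM (median 445) as compared with 700.3 to 948 CPM (median 834) (-0.91 ± 0.13, adjusted p = 3.38e-05). Both genes were higher than control with imatinib (log2 0.56 and 0.79; adjusted p = 0.00444 and 7.69e-05) and were not called with ponatinib (-0.28 and -0.12). Cyp2b10, the classical CAR target, was read at 0 to 10.6 CPM (median 6.63) with ponatinib and 8.51 to 67.4 CPM (median 25.8) with imatinib (-2.37 ± 0.63, adjusted p = 0.0425), and its call was lost without ponatinib replicate 2, which had no read of it (-2.17, adjusted p = 0.0634), and in 10 of the other 15 fits that left out 1 mouse. Cyp2c29 (-1.09 ± 0.17) and Cyp2c54 (-1.73 ± 0.35) belong to the same cluster of near-identical Cyp2c copies as Cyp2c50. Reads that aligned to several copies were counted on no gene, so that the levels of single copies are uncertain. Among the other cytochromes P450, Cyp2f2, a periportal enzyme, was lower at -0.59 ± 0.15 (adjusted p = 0.0277); it was below control with ponatinib (-0.76, adjusted p = 0.00046) and not called with imatinib (-0.17), and was called between the drugs in 7 of 16 fits that left out 1 mouse (-0.55 without replicate 2, adjusted p = 0.0638).

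Enzymes that hydrolyse or conjugate the products of cytochromes P450 included further calls. Of 54 conjugation and hydrolysis genes tested, 9 were lower with ponatinib (0.688% of all genes) and none higher. The median of the list was -0.39, and 6 were called lower without replicate 2. Ephx1, the microsomal epoxide hydrolase, was 250.4 to 436 CPM (median 310.4) with ponatinib and 537 to 977 CPM (median 727) with imatinib, without overlap (-1.19 ± 0.17, adjusted p = 1.16e-05). It differed from control in opposite directions, by -0.48 with ponatinib (adjusted p = 0.0423) and 0.71 with imatinib (adjusted p = 0.0036), and was the single gene of the 138 for which both were called with opposite sign. The carboxylesterase Ces2e had 103 to 238 CPM (median 206) as compared with 273 to 519 CPM (median 333) (-0.85 ± 0.13, adjusted p = 3.43e-05), again without overlap. Its relatives Ces1b (-0.99 ± 0.15) and Ces1g (-0.74 ± 0.14) were lower as well. The glucuronosyltransferase Ugt1a9 showed another pattern, since it was low with ponatinib as compared with both other groups: 1.85 to 18.7 CPM (median 12.1) with ponatinib, 25.0 to 107 CPM (median 56.2) with imatinib and 23.5 to 107 CPM (median 56.3) in control mice (-2.49 ± 0.38, adjusted p = 3.43e-05). The genes of the Ugt1a locus share their last exons, so that reads of Ugt1a9 come from its own first exon or cannot be assigned. Sult2a7, a sulfotransferase of a family with close copies, was found at 0 to 6.57 CPM (median 1.15) with ponatinib and 2.13 to 77.0 CPM (median 19.4) with imatinib, as compared with 0.242 to 5.58 CPM in control mice (-3.63 ± 0.73, adjusted p = 0.00333). Here 1 imatinib mouse fell inside the ponatinib range.

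Of 19 drug transporters tested, 1 was called lower with ponatinib (0.688% of all genes) and none higher. This was Abcc3, which exports glucuronides and bile salts from hepatocytes to blood. Abcc3 was 129.6 to 332 CPM (median 259.6) as compared with 364 to 544 CPM (median 443) and without overlap (-0.87 ± 0.15, adjusted p = 0.000295). It was lower than control with ponatinib (-0.65, adjusted p = 0.00208) and was not called with imatinib (0.22). None of the 27 NRF2 antioxidant targets was called by edgeR, whereas DESeq2 called 1 lower and limma none. At the unadjusted cut-off of 0.01, 8 were lower (2.16% of all genes) and none higher. At an unadjusted p below 0.05, 12 were lower and none higher. Their median was -0.40, with 23 of 27 below zero.

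Fatty acid oxidation genes, most of which answer to PPAR-alpha, formed the largest group of calls. Of 33 tested, 10 were lower with ponatinib (0.688% of all genes) and none higher. At the unadjusted cut-off of 0.01, 19 were lower (2.16% of all genes). The median was -0.43 (-0.46 without replicate 2, with 10 called lower). Acot1, a thioesterase that splits long-chain acyl-CoA in the cytosol, was 5.64 to 45.4 CPM (median 22.1) with ponatinib and 58.0 to 144 CPM (median 79.3) with imatinib, without overlap (-2.12 ± 0.32, adjusted p = 3.43e-05). Control mice, at 11.8 to 38.6 CPM, lay inside the ponatinib range. Cyp4a10, a fatty acid omega-hydroxylase and classical PPAR-alpha target, was 186 to 703 CPM (median 402) as compared with 759 to 1375 CPM (median 949.6) (-1.18 ± 0.19, adjusted p = 0.000104). Control mice again lay inside the ponatinib range at 280.3 to 620.3 CPM. The lowest ponatinib value of Cyp4a10 was that of replicate 2, without which the range was 323 to 703 CPM. Its close copy Cyp4a31 was lower by a similar size (-1.32 ± 0.22). Reads that aligned to several Cyp4a copies were counted on no gene, so that the levels of single copies are uncertain. Aldh3a2, a fatty aldehyde dehydrogenase, differed from the Cyp4a genes in its position to control: it was below control with ponatinib (-0.53, adjusted p = 0.00174) and was not called with imatinib (0.17), with a fold change between the drugs of -0.70 ± 0.12 (adjusted p = 0.000237). The other called members were Ehhadh (-0.89 ± 0.17), the bifunctional enzyme of peroxisomal oxidation, Acadm (-0.48 ± 0.11), the medium-chain acyl-CoA dehydrogenase, Cpt2 (-0.45 ± 0.11), which frees acyl-CoA inside mitochondria, Acot2 (-1.28 ± 0.29), Cyp4a14 (-0.86 ± 0.22) and Acaa1b (-0.72 ± 0.19). These 6 were outside the rule for naming and were chosen after their values were seen. So were Ppara (0.06 ± 0.28, adjusted p = 0.981) and Pdk4 (0.04 ± 0.48, adjusted p = 0.993), which were not called. For Acaa1b, imatinib replicates 7 and 8 had 1146 and 1160 CPM, inside the ponatinib range of 630 to 2018 CPM.

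The list of fatty acid synthesis genes included calls in the opposite direction, though neither gene called with all mice encodes an enzyme that makes fatty acids. Of 24 tested, 2 were higher with ponatinib (0.291% of all genes) and none lower. At the unadjusted cut-off of 0.01, 7 were higher (1.75% of all genes), and the median was 0.35. Lpin1, a phosphatidate phosphatase of triglyceride synthesis, was 81.6 to 175 CPM (median 104) with ponatinib and 41.8 to 105 CPM (median 63.1) with imatinib (0.87 ± 0.21, adjusted p = 0.0247). Pklr, the liver pyruvate kinase, was 186 to 1028 CPM (median 549) as compared with 190.5 to 473 CPM (median 332) (0.75 ± 0.20, adjusted p = 0.0441), and control mice lay inside the ponatinib range at 375 to 685 CPM. For Pklr the lowest ponatinib value was that of replicate 2, without which the groups no longer overlapped (478 to 1028 CPM; 0.89, adjusted p = 0.00351), and 5 members of the list were then called higher. Both calls depended on other single mice: Pklr was called in 6 of 16 fits that left out 1 mouse (highest adjusted p 0.129, without ponatinib replicate 4) and Lpin1 in 12 of 16 (0.0800, without ponatinib replicate 1). Neither was called in a fit of only the 16 mice (adjusted p = 0.203 and 0.0522). Of 21 cholesterol synthesis enzymes none was called by edgeR or DESeq2, and limma called 1 higher. None passed the unadjusted cut-off of 0.01, as compared with 1.75% of all genes higher and 2.16% lower. At an unadjusted p below 0.05, 3 were higher and none lower.

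Of 28 genes of bile acid synthesis and transport 4 were lower with ponatinib (0.688% of all genes) and none higher. Besides Abcc3 these were Cyp7b1, an oxysterol hydroxylase (-0.78 ± 0.18, adjusted p = 0.0123), Abcb4, the phospholipid exporter into bile (-0.54 ± 0.12, adjusted p = 0.0135; 0.0509 without imatinib replicate 7), and Hsd17b4 of peroxisomal side-chain oxidation (-0.37 ± 0.09, adjusted p = 0.0193; 0.0709 without imatinib replicate 3). Cyp7a1, the rate-limiting enzyme of bile acid synthesis, was 8.16 to 197 CPM (median 85.7) with ponatinib and 38.7 to 179.5 CPM (median 94.7) with imatinib, and no difference was called (-0.20 ± 0.45, adjusted p = 0.953). Among 27 genes of lipases and lipid uptake, 3 were lower with ponatinib (0.688% of all genes). Cd36, the fatty acid scavenger receptor, was 169 to 304 CPM (median 186) as compared with 239.5 to 355 CPM (median 294) (-0.53 ± 0.14, adjusted p = 0.0418), and Slc27a1, a fatty acid transporter, had -0.75 ± 0.18 (adjusted p = 0.0247; 0.102 without imatinib replicate 2). Gpihbp1, the endothelial anchor of lipoprotein lipase, had -1.07 ± 0.28 (adjusted p = 0.0453); Gpihbp1 and Cd36 were called in 5 and 6 of 16 fits that left out 1 mouse, and without ponatinib replicate 2 their folds were -0.93 and -0.50 (adjusted p = 0.1 and 0.0785). Lpl itself was not called between the drugs (0.66 ± 0.28, adjusted p = 0.337).

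Among chaperones of the endoplasmic reticulum few calls were made. Of 25 genes tested 1 was called lower with ponatinib (2 without replicate 2), as compared with 0.688% of all genes. At the unadjusted cut-off of 0.01, 9 were lower (2.16% of all genes) and none higher. The fold change was below zero for 23 of 25, and the median was -0.33. The called member, Creld2, which is secreted under endoplasmic reticulum stress, was 9.77 to 44.4 CPM (median 23.8) with ponatinib and 32.2 to 126 CPM (median 77.0) with imatinib (-1.51 ± 0.34, adjusted p = 0.0116). Derl3, which helps to remove misfolded proteins from this compartment and was named for its fold change and not through the list, was 3.08 to 25.1 CPM (median 13.2) as compared with 22.0 to 123 CPM (median 65.7) (-2.39 ± 0.41, adjusted p = 0.000319). Control mice were widely spread, at 15.4 to 96.4 CPM of Derl3 and 16.1 to 168 CPM of Creld2. Derl3 was below control with ponatinib (-1.66, adjusted p = 0.00388) and not called with imatinib (0.73, adjusted p = 0.252). In both genes the imatinib mice fell apart into 6 with high and 2 with low values. Replicates 7 and 8 of imatinib had 24.8 and 22.0 CPM of Derl3 and 32.6 and 32.2 CPM of Creld2, inside the range of the ponatinib mice. These 2 livers also had the lowest shares of reads outside annotated genes in their group (8.44% and 8.16%). With that share as a covariate in the fit, Derl3 stood at -2.29 (adjusted p = 0.00103) and Creld2 at -1.48 (adjusted p = 0.0220), so that both stayed called; Creld2 was not called by limma (adjusted p = 0.067). Hspa5, the chief chaperone, had -0.72 ± 0.23 (unadjusted p = 0.0024) and was chosen after its values were seen.

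The promoters of these genes were searched for the element known to control many chaperones. The endoplasmic reticulum stress element consists of CCAAT and CCACG with 9 bases of any kind between them and is bound by ATF6 and XBP1 together with NF-Y. Searched on both strands of the 250 bases before the start, it was found in 8 of the 20 genes of the list with a RefSeq promoter (Calr, Canx, Creld2, Dnajc3, Hsp90b1, Hspa5, Pdia6 and Syvn1) and also in Derl3, as compared with 37 of 32817 promoter windows in all (0.113%). Textbook target genes were put into the list because of such control, so that the count describes the list. The promoters of Derl3 (plus strand, chr10:75893148-75893397), Creld2 (plus strand, chr15:88819396-88819645) and Hspa5 (plus strand, chr2:34771840-34772089; all GRCm38.p6) are shown for the element, in capitals, which reads on the minus strand in the first 2 and on the plus strand in Hspa5:
Derl3: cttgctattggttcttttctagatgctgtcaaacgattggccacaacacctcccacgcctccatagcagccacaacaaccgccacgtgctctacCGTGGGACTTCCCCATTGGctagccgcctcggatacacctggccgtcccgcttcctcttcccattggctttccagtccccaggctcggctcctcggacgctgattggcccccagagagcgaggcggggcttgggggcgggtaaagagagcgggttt
Creld2: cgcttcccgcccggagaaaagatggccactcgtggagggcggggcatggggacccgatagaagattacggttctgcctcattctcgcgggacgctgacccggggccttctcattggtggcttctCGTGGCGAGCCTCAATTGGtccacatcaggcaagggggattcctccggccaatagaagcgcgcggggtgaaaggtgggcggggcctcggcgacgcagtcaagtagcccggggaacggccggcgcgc
Hspa5: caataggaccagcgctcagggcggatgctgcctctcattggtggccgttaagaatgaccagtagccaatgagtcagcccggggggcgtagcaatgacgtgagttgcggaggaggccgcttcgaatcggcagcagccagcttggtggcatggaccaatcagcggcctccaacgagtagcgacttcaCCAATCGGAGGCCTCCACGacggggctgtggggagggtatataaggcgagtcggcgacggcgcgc
The PPAR response element was searched on both strands as 2 exact copies of AGGTCA with 1 base between them. It was found in none of the 25 fatty acid oxidation genes with a RefSeq promoter and in 0.0335% of all windows. Exact copies are thus rare everywhere, and elements with other letters or further upstream were not searched. The result therefore cannot tell whether these genes hold the element.

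Several endothelial transcripts were lower with ponatinib. Of 24 markers of liver sinusoidal endothelium, 2 were called lower (0.688% of all genes) and none higher. At the unadjusted cut-off of 0.01, 7 were lower (2.16% of all genes). The median of the list was -0.52 (-0.38 without replicate 2). The summed level of the 24 markers was 278 to 937 CPM with ponatinib (median 727), 771 to 1180.0 with imatinib (median 857) and 471 to 1312 in control mice (median 787), and the lowest ponatinib value was that of replicate 2. Bmp2, which sinusoidal cells release to set hepcidin, was 3.33 to 12.6 CPM (median 10.00) with ponatinib and 9.82 to 27.2 CPM (median 19.9) with imatinib (-1.13 ± 0.27, adjusted p = 0.0176). Clec4g, a lectin of these cells, was 4.35 to 55.3 CPM (median 32.7) as compared with 43.5 to 99.3 CPM (median 67.2) (-0.95 ± 0.24, adjusted p = 0.0277). Both stayed called without replicate 2 (-1.01 and -0.78; adjusted p = 0.0466 and 0.0267), but Clec4g was called in only 9 of 16 fits that left out 1 mouse (highest adjusted p 0.0963, without imatinib replicate 2). Pcdh12 and Cldn5, 2 endothelial junction genes named for their fold change, were lower as well, Pcdh12 at 0 to 3.12 CPM (median 1.38) as compared with 2.13 to 12.9 CPM (median 5.23) (-2.15 ± 0.53, adjusted p = 0.0244) and Cldn5 at 1.49 to 7.56 CPM (median 3.30) as compared with 3.70 to 25.7 CPM (median 11.2) (-1.72 ± 0.41, adjusted p = 0.017). Pcdh12 was below control with ponatinib (-1.94, adjusted p = 0.00871) and not called with imatinib (0.20). Without imatinib replicate 2 the calls of Pcdh12 and Cldn5 were lost (adjusted p = 0.0707 and 0.0774), as was that of Bmp2 without ponatinib replicate 8 (0.0533). Limma with sample quality weights did not call Bmp2, Pcdh12 or Cldn5 (adjusted p = 0.085, 0.17 and 0.21). A fit of only the 16 mice did not call Clec4g (adjusted p = 0.19).

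The kinases that the drugs inhibit were not called at the mRNA level by edgeR. Among 8 kinases that both drugs block, 1 was lower and none higher at an unadjusted p below 0.05. Among 17 further targets of ponatinib 4 were lower and 1 higher. At the unadjusted cut-off of 0.01, 1 of the 8 was lower (2.16% of all genes) and none higher. Of the 17, 1 was lower and 1 higher at 0.01 (2.16% and 1.75% of all genes). DESeq2 and limma called none in either list. Kdr, the VEGF receptor 2 of endothelium, was 3.89 to 42.1 CPM (median 29.1) with ponatinib and 33.2 to 82.0 CPM (median 44.9) with imatinib (-0.81 ± 0.27, adjusted p = 0.172), and Kit was 2.41 to 7.55 CPM (median 5.50) as compared with 4.86 to 15.2 CPM (median 8.50) (-0.89 ± 0.31, adjusted p = 0.194). Pdgfrb (0.21 ± 0.26, adjusted p = 0.883) and Csf1r (0.45 ± 0.25, adjusted p = 0.547) were not called. Col1a1, the main fibrillar collagen, was 6.48 to 25.9 CPM with ponatinib and 7.01 to 19.1 CPM with imatinib as compared with 23.6 to 219 CPM in control mice. It was below control with each drug (log2 -2.78 and -3.03; adjusted p = 0.000114 and 4.06e-05), and the difference between the drugs was 0.25 ± 0.48 (adjusted p = 0.936).

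Acute-phase proteins, which hepatocytes make in response to inflammatory cytokines, included 5 calls among 28 genes tested. All 5 were higher with ponatinib (0.291% of all genes) and rested on 1 mouse. Saa1, an acute-phase apolipoprotein, was 11846 CPM in ponatinib replicate 2, 9.91 to 110.1 CPM in the other 7 ponatinib mice and 17.5 to 68.8 CPM with imatinib (5.22 ± 1.00, adjusted p = 0.00183). Without replicate 2 the fold change was 0.29 (adjusted p = 0.924). Saa2, a near-identical copy, followed the same pattern, at 13333 CPM in this mouse, 5.43 to 62.6 CPM in the other 7 and 6.24 to 45.1 CPM with imatinib (6.23 ± 1.16 with it, 0.51 without). Orm2, a plasma glycoprotein, Lcn2, which binds iron-carrying siderophores, and Hpx, which binds free heme and was chosen after its values were seen, were likewise highest in this mouse, at 1469, 1899 and 22007 CPM, and none of the 3 was called without it (adjusted p = 0.593, 0.908 and 0.313). The median of the list was 0.54 with and 0.11 without the mouse, and without it no member was called. The chemokines Cxcl13 (143 CPM as compared with 0 to 8.88 in the other 7 ponatinib mice) and Cxcl1 (131 as compared with 2.31 to 13.9), the neutrophil protease Prtn3 (146 as compared with 0 to 12.1) and Syne4, a nuclear envelope protein (33.1 as compared with 3.12 to 6.68), were also called with the mouse and not without it. Their folds without it were 1.21, 0.82, 4.32 and 1.86 (adjusted p = 0.776, 0.568, 0.132 and 0.146), as compared with 4.37, 2.18, 7.39 and 2.68 with it. For Syne4 the other 7 ponatinib mice also lay above all imatinib mice (0.494 to 2.36 CPM). The same liver had the lowest sum in its group of the sinusoidal markers (278 CPM, group median 727), of 20 stellate cell and fibroblast markers (309 CPM, group median 939) and of the hepatocyte markers (102281 CPM, group median 149176), and a summed level of 18 monocyte and neutrophil markers of 840.2 CPM, as compared with a median of 403 in its group and 339.9 to 1004 CPM in control mice.

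**Figure D3:**
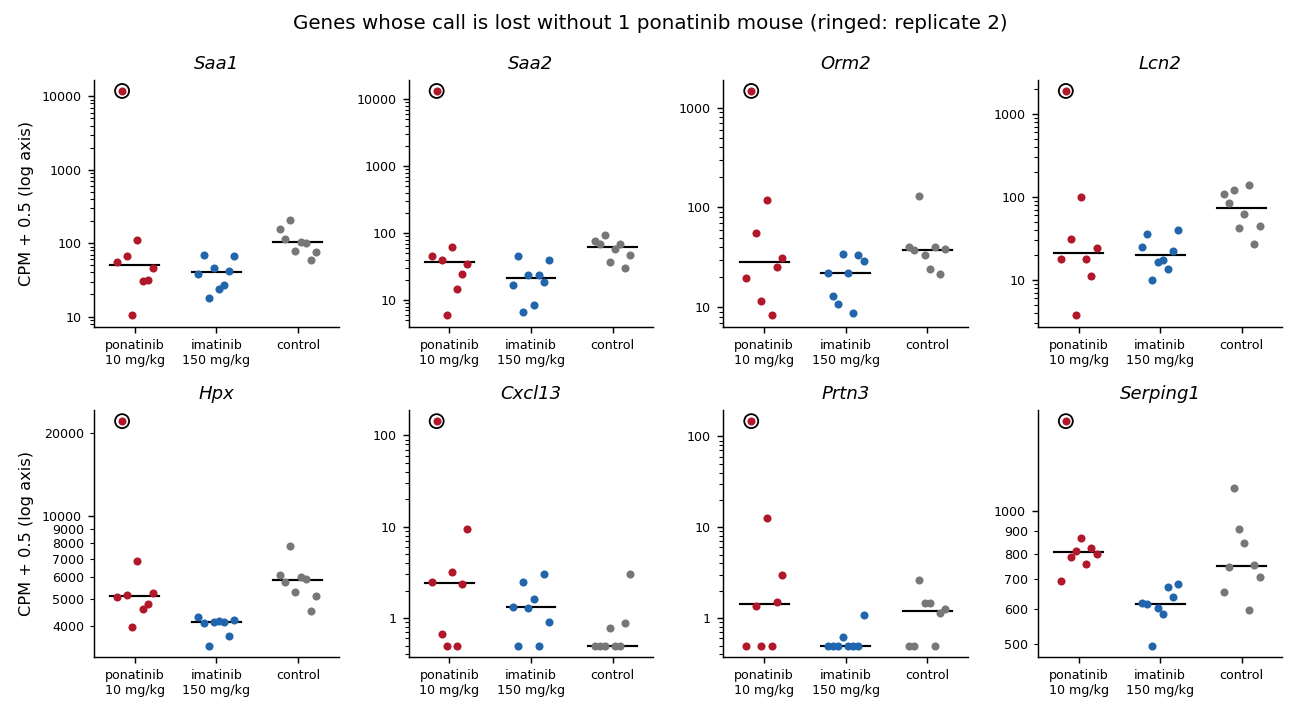
CPM + 0.5 on log axes for 8 genes called higher with ponatinib, with 1 point per mouse, the median of each group of 8 mice as a line, and ponatinib replicate 2 ringed. Replicate 2 is the highest of all mice shown in each of the 8 genes, and none is called without it.

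Complement genes had 3 calls among 29 tested, all higher with ponatinib (0.291% of all genes). Serping1, the C1 inhibitor that also restrains the contact system and kinin release, was 693 to 1596 CPM (median 806) with ponatinib and 496 to 684 CPM (median 617) with imatinib, so that all ponatinib mice lay above all imatinib mice (0.54 ± 0.13, adjusted p = 0.0277). Without replicate 2 the other 7 mice, at 693 to 868 CPM, still lay above imatinib but the call was lost (0.37, adjusted p = 0.145). C1s1, a serine protease of C1, and C6 of the membrane attack complex had 0.31 ± 0.08 (adjusted p = 0.0398) and 1.10 ± 0.29 (adjusted p = 0.0455), and neither was called without the mouse (adjusted p = 0.0712 and 0.237). The fold of C6 was then 0.74, whereas that of C1s1 was 0.30, nearly as large as with the mouse, which at 656 CPM lay close to the other 7 (526 to 636 CPM); C1s1 was called in 6 of 16 fits that left out 1 mouse. Kng1, the kininogen gene, was 2316 to 4705 CPM as compared with 2179 to 2907 CPM (0.31 ± 0.13, adjusted p = 0.353), and F7, clotting factor VII, was 131 to 229.6 CPM as compared with 125 to 148 CPM (0.40 ± 0.17, adjusted p = 0.342). Neither was called between the drugs. Against control, Kng1 and F7 were higher with ponatinib (log2 0.57 and 0.53, adjusted p = 0.00225 and 0.0281). The values with imatinib were 0.27 and 0.13 (adjusted p = 0.212 and 0.708). Ponatinib replicate 2 was the highest of its group for both genes, at 4705 and 229.6 CPM. The other 7 mice had 2316 to 3244 and 131 to 204 CPM. Values against control without this mouse are not given here. None of the 14 clotting factors and cofactors tested was called by edgeR between the drugs, nor by DESeq2 or limma. None passed the unadjusted cut-off of 0.01, as compared with 1.75% of all genes higher and 2.16% lower. At an unadjusted p below 0.05, 4 were higher and 1 lower.

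Other genes higher with ponatinib stayed called without replicate 2, but not under every other setting. Marco, a scavenger receptor of macrophages, was 4.42 to 379 CPM (median 63.5) with ponatinib and 5.82 to 13.7 CPM (median 9.98) with imatinib (3.66 ± 0.77, adjusted p = 0.00616; without replicate 2 3.20, adjusted p = 0.0202). Ponatinib mice were widely spread, with 5 of 8 above every imatinib mouse and 2 below or at their lower end. Limma with sample quality weights, which gives outlying libraries less weight, called neither Marco (1.97, adjusted p = 0.56) nor Cd300e (1.97, adjusted p = 0.479) nor Dok2 (1.62, adjusted p = 0.0815), and a fit of only the 16 mice did not call Trf (0.58, adjusted p = 0.104). The 20 Kupffer cell markers summed to 894 to 3462 CPM with ponatinib (median 1694) and 965 to 1682 with imatinib (median 1237). Marco was the 1 called of them (0.291% of all genes), whereas DESeq2 called 2 higher and limma none. At the unadjusted cut-off of 0.01, 3 were higher (1.75% of all genes) and none lower. The list median was 0.49 (0.39 without replicate 2), with 16 of 20 above zero. The 18 monocyte and neutrophil markers had a median of 0.60 (0.33 without replicate 2), with none called and 13 above zero. Cd300e, a receptor of monocytes, had 0 to 20.3 CPM (median 3.51) as compared with 0 to 1.99 CPM (median 0.423) (3.22 ± 0.72, adjusted p = 0.0102), a call that was lost without ponatinib replicate 5 (adjusted p = 0.0565). Dok2, an adaptor that dampens tyrosine kinase signalling in blood cells, was 3.30 to 14.0 CPM (median 9.70) with ponatinib and 0.972 to 4.53 CPM (median 2.72) with imatinib (1.86 ± 0.35, adjusted p = 0.00124), and was below control with imatinib (-1.47, adjusted p = 0.00383) and not called with ponatinib (0.39). Trf, the hepatocyte gene of the iron carrier transferrin, was 1719.7 to 4221 CPM (median 3613) as compared with 1586 to 2751 CPM (median 2302) (0.58 ± 0.13, adjusted p = 0.0112), with 7 of 8 ponatinib mice above every imatinib mouse and replicate 4 at 1719.7 CPM. As compared with control it was higher with ponatinib (0.92, adjusted p = 5.96e-05). Tet2, which oxidizes 5-methylcytosine, and the semaphorin receptor gene Plxnb1 were chosen after their values were seen: Tet2 had 0.88 ± 0.17 (adjusted p = 0.00261) and Plxnb1 0.59 ± 0.13 (adjusted p = 0.00893), with no overlap for Plxnb1 (88.6 to 141 as compared with 58.7 to 81.3 CPM). The lysosomal protease gene Ctsl was called at 0.41 ± 0.10 (adjusted p = 0.0258) and stood at 0.31 without replicate 2 (adjusted p = 0.104).

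**Figure D4:**
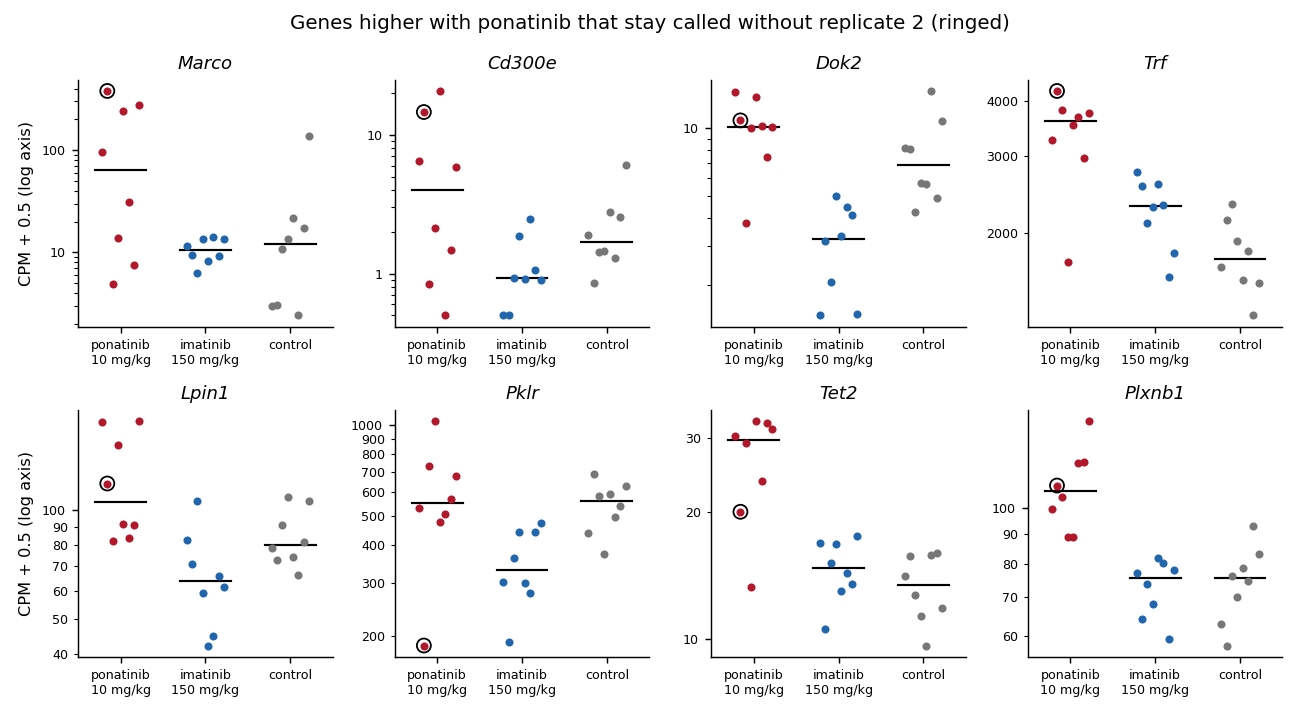
CPM + 0.5 on log axes for 8 genes higher with ponatinib that stay called without replicate 2 (ringed), with 1 point per mouse and the median of each group of 8 mice as a line. Marco and Cd300e are spread widely among ponatinib mice, whereas all 8 ponatinib mice lie above all imatinib mice for Plxnb1.

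A few further genes named by their fold change or list were lower with ponatinib. Slc39a5, a zinc transporter, was 0 to 10.4 CPM (median 5.63) with ponatinib and 7.69 to 34.7 CPM (median 24.3) with imatinib (-2.15 ± 0.53, adjusted p = 0.0264), with control at 0.776 to 6.16 CPM; without replicate 2 the fold was -2.03 and no longer called (adjusted p = 0.0555), and it was called in 11 of 16 fits that left out 1 mouse. Ccng1, a p53 target, was 36.1 to 49.7 CPM (median 41.6) as compared with 53.1 to 102 CPM (median 71.2) without overlap (-0.78 ± 0.15, adjusted p = 0.00124). It was the 1 gene called of 30 p53 and cell cycle genes, as compared with 0.688% of all genes called lower. Tdo2, which starts tryptophan breakdown, had -0.51 ± 0.13 (adjusted p = 0.032). Psmb7, a catalytic subunit of the proteasome, had -0.41 ± 0.10 (adjusted p = 0.0277) without overlap, with 31 of 33 proteasome subunits below zero and a list median of -0.22. The call of Psmb7 was lost without imatinib replicate 3 (adjusted p = 0.0892) and that of Tdo2 without ponatinib replicate 5 (adjusted p = 0.109). Clstn3, a calsyntenin, had -1.59 ± 0.32 (adjusted p = 0.00327). Imatinib replicates 7 and 8 had 7.25 and 8.99 CPM of Clstn3, inside the ponatinib range of 1.90 to 11.5 CPM.

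Set beside control, the 138 genes fell into few patterns. Both drugs were compared with the same 8 control mice, so that the counts are not independent. The share of reads outside annotated genes was 8.89% to 15.2% with ponatinib and 7.55% to 8.67% in control mice, without overlap. With imatinib it was 8.16% to 14.1%. Whether this share bears on the values against control was not tested. Of the 97 genes lower with ponatinib than with imatinib, 36 were higher than control with imatinib and not called with ponatinib, among them Cyp1a1, Cyp1a2, Acot1 and Cyp4a10. A further 37 were lower than control with ponatinib and not called with imatinib, among them Ugt1a9, Derl3, Abcc3 and Pcdh12. For 21 neither was called, 2 were higher than control with both drugs, and Ephx1 was the remaining gene. Of the 41 genes higher with ponatinib, 14 were higher than control with ponatinib and not called with imatinib, 11 were lower than control with imatinib and not called with ponatinib, and 16 were called with neither. In all, 12.6% of the 14090 genes were called between ponatinib and control and 9.62% between imatinib and control.

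Of the 52 gene lists examined, 26 had no called member. Respiratory complex I (36 genes tested), complexes II to V (38) and cytosolic ribosomal proteins (74) had medians of 0.04, 0.02 and 0.01. In these 3 lists edgeR, DESeq2 and limma called none. No gene of them passed the unadjusted cut-off of 0.01, as compared with 1.75% of all genes higher and 2.16% lower. At an unadjusted p below 0.05, 4 genes were higher and 1 lower. Interferon-stimulated genes had 30 of 33 fold changes above zero and a median of 0.28, with none called by edgeR or DESeq2 and 1 higher by limma. At the unadjusted cut-off of 0.01, 2 of them were higher (1.75% of all genes) and none lower. At an unadjusted p below 0.05, 5 were higher. Pericentral genes, which lie around the central vein and depend on Wnt signals, had 22 of 23 fold changes below zero and a median of -0.38. Of them 2 were called lower (Cyp1a2 and Aldh3a2), as compared with 0.688% of all genes, whereas periportal genes had a median of 0.11. The integrin gene Itgb2 of leukocytes was 8.38 to 62.5 CPM with ponatinib and 11.8 to 23.2 CPM with imatinib (0.94 ± 0.31, adjusted p = 0.15).

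**Figure D5:**
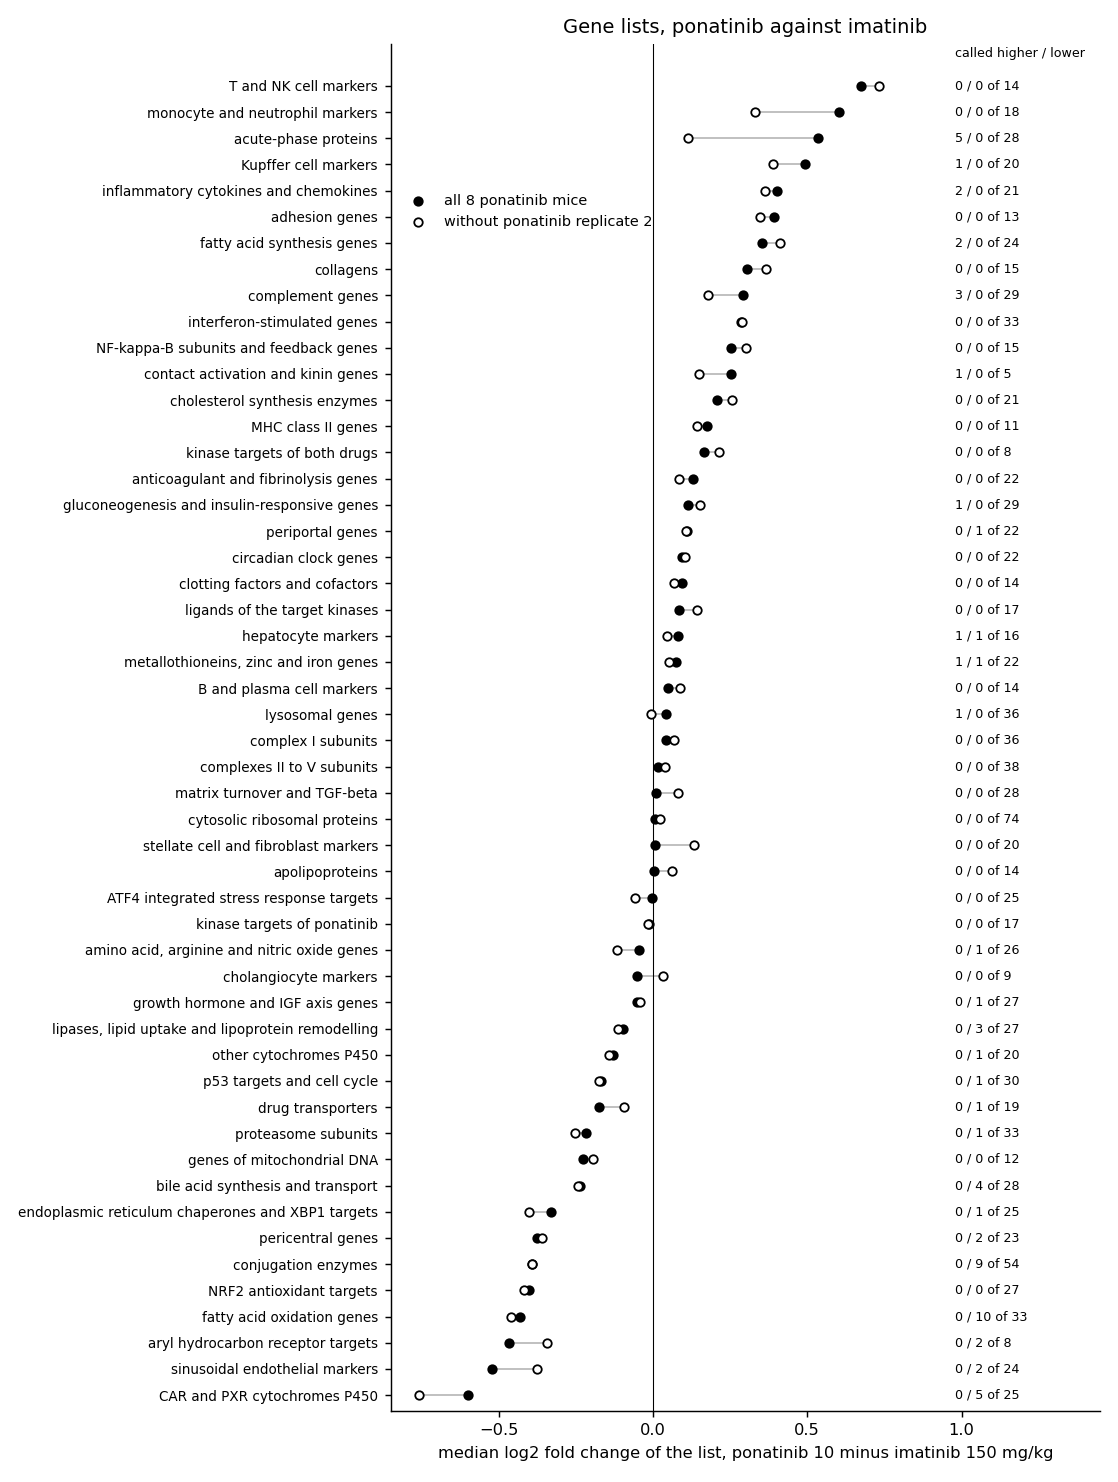
Median log2 fold change, ponatinib minus imatinib, of the tested members of each gene list reported, with all 8 ponatinib mice (filled) and without replicate 2 (open), and the number called higher and lower of those tested at the right. Medians run from -0.60 for CAR and PXR cytochromes P450 to 0.68 for T and NK cell markers, and the median of acute-phase proteins moves from 0.54 to 0.11. The 14 T and NK cell markers tested had few reads, with a median sum of 19.6 CPM with ponatinib and 16.1 CPM with imatinib. None of them had an unadjusted p below 0.05.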

How the data were processed

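Liver RNA was extracted with RNA-Bee and Nucleospin columns, and poly(A) mRNA libraries were made with the NEBNext Ultra kit. Per the submitters' processing notes, reads were aligned to GRCm38 with TopHat2 2.0.14 and Bowtie2 2.1.0, handled with SAMtools 0.1.18 and counted with HTSeq 0.6.1p1. The deposited values are whole-number counts per Ensembl gene, not normalized; reads that aligned to several places were counted on no gene, and the strand setting is not given in the sources used here. Of 45513 identifiers 44671 were named by GENCODE M21 (GRCm38). Groups follow the treatment labels. Nothing says more of the replicates than that they are separate liver samples of 8 mice per group.

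Counts were normalized by TMM and tested with edgeR 4.0.16 (glmQLFTest; R 4.3.3) after its filter on low counts; limma 3.58.1 and DESeq2 1.42.0 were alternatives. CPM values are TMM-normalized. Named were the 12 largest fold changes per direction among called genes with a mean of at least 2 CPM and a gene symbol, the 6 smallest p-values, up to 4 called members of each of 52 lists by smallest p, and fixed genes of interest, some of which are not reported here. The comparison, the lists and the genes were chosen with earlier results of these data known. Of 1164 list symbols 1163 were found and 1118 tested. The test was checked on simulated counts. Exact permutation tests used SciPy. Mice per group and depth limit precision for genes with few reads.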

Additional observations from a re-analysis of the deposited data

Results flagged for a closer look

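Within each group of 8 mice, the named genes and the share of reads outside annotated genes were searched for a single mouse far from the others, by the gap to its nearest neighbour over the range of the group (Dixon's test at the 95% level). Of 134 sets of values 16 held such a mouse, and 12 of the 16 were ponatinib replicate 2. Chance flags about 1 in 20 sets, but many of these genes were named for a large fold change that this mouse itself produced, so that the count is a description and cannot be set against chance. In that mouse Saa2 was 13333 CPM, Saa1 11846 CPM, Lcn2 1899 CPM, Orm2 1469 CPM, Serping1 1596 CPM, Ctsl 1259 CPM, Kng1 4705 CPM, Prtn3 146 CPM, Cxcl13 143 CPM, Cxcl1 131 CPM and Syne4 33.1 CPM, each the highest of the group, and Ces2e was 103 CPM, the lowest. Its summed sinusoidal, stellate cell and fibroblast, and hepatocyte markers were each the lowest of the ponatinib group.

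Among imatinib mice, replicate 2 was high in Itgb2 (23.2 CPM), replicate 5 in Kdr (82.0 CPM) and replicate 8 in Prtn3 (0.593 CPM, where 7 mice had 0.113 CPM or less). Imatinib replicate 4 had the highest share of reads outside annotated genes in its group (14.1%). The highest of all 16 mice was that of ponatinib replicate 3 (15.2%), which was not flagged within its group.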

How the results depend on the processing

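The counts of 41 genes higher and 97 lower with ponatinib moved by more than 1.5 times under some settings. A fit of only the 16 mice gave 13 higher and 60 lower, DESeq2 gave 70 higher, limma with sample quality weights gave 27 higher, an unadjusted p below 0.01 gave 246 and 304, and an adjusted p below 0.01 gave 11 and 41. Leaving out each mouse in turn gave 25 to 74 higher and 63 to 130 lower. The most came without ponatinib replicate 4 (74 and 130), the fewest higher without imatinib replicate 3 (25) and the fewest lower without ponatinib replicate 8 (63). Apart from the smaller fit and the thresholds, the cause was not tested. Other normalizations, filters, all 56 mice, a robust fit and the share of reads outside genes as a covariate (36 and 82) stayed within 1.5 times, as did leaving out the mouse with most such reads in each group (40 and 75), a setting chosen after seeing the data. Of 54 named genes that were called, 20 were called under every setting, among them Cyp1a1, Cyp1a2, Ephx1, Acot1 and Ugt1a9, and none changed direction; 25 were called in all 16 fits that left out 1 mouse; 12 of the 18 higher and 5 of the 36 lower lost the call without ponatinib replicate 2. The difference in the share of reads outside annotated genes was 0.418 to 1.59 percentage points when each mouse was left out and 1.07 with ambiguous reads left out. No paired analysis was possible because the labels carry no numbers that tie mice across groups.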
